A study of Mus musculus with 4 samples.

Results

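The genes described here are 33 genes of glycolysis, of glucose and lactate transport and of the enzymes that steer the pathway, out of 32285 gene rows in each of 4 libraries of droplet single-cell RNA sequencing from mouse RPE-choroid tissue. RPE is the retinal pigment epithelium, a single sheet of pigmented cells that nourishes the photoreceptors, and the choroid is the vessel layer on its other side. The genes were chosen by symbol as parts of this pathway, and all 33 were found. Aldoa had 2 rows, whose 50165 and 9 UMIs were summed. Of the 33 genes, 19 had at least 30 UMIs over the pair of libraries in RPE-like cells at 1 month and 30 had them at 2 months. A UMI is a molecular tag that counts 1 captured RNA molecule.

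The 4 groups were Vldlr-/- mice, which lack the very low density lipoprotein receptor, and wild-type (WT) mice, each at 1 month and at 2 months of age, with 1 library per group. The labels name nothing else that the groups share and do not say how many animals went into a library. With 1 library per group there was no replicate error and no test. Every interval printed is a 95% interval that covers counting error only, and the spread between animals cannot be read from these data. Vldlr, the deleted gene, had 12.3 CPM (UMIs of the gene per 1000000 UMIs of the class) in Vldlr-/- and 139.6 CPM in WT RPE-like cells at 1 month. It had 27.3 CPM in Vldlr-/- and 182 CPM in WT cells at 2 months. The library labelled Vldlr-/- was the lower at both ages.

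Glycolysis splits glucose into pyruvate and makes ATP without oxygen, and lactate dehydrogenase turns pyruvate into lactate or lactate back into pyruvate. In the outer retina glucose from the choroid crosses the RPE through the glucose transporter GLUT1 (Slc2a1) to reach the photoreceptors, which are known for fermenting much of it to lactate. The RPE takes lactate up and passes it on through monocarboxylate transporters that need the chaperone basigin (Bsg) to reach the membrane, and MCT3 (Slc16a8) is known as the transporter of its basal side.

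Cells were sorted into classes by clustering and by marker genes. The RPE-like class held 149 cells of the Vldlr-/- library and 216 of the WT library at 1 month, and 588 cells of the Vldlr-/- and 1348 of the WT library at 2 months. Their UMIs summed to 326316 in Vldlr-/- and 515679 in WT at 1 month, and to 7919643 in Vldlr-/- and 14476712 in WT at 2 months. Of 10 RPE markers, 9 were detected in the class at 1 month, with Best1 at 0, and Best1 had 2 UMIs in Vldlr-/- and 3 UMIs in WT cells at 2 months. Summed rod markers in that class stood at 1029.7 CPM in Vldlr-/- and 638 CPM in WT cells at 1 month, and at 259.9 CPM in Vldlr-/- and 344 CPM in WT cells at 2 months. The genes took 1.68% of RPE-like UMIs in Vldlr-/- and 1.77% in WT cells at 1 month, and 1.27% in Vldlr-/- and 1.32% in WT cells at 2 months. The 2 ages differ in depth and in the version of the counting software, which cannot be told apart from age, so each age is compared within itself. The assay reads each transcript from one end, so a level is compared for 1 gene across cells and not between genes. Shares among genes of the same step are shares of counted UMIs, and they are compared between classes and libraries.

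The genes divided between the RPE and the photoreceptors (heat map of level by class and library). Over the classes with at least 30 cells in a library, 6 genes had their highest level in RPE-like cells in all 4 libraries: the lactate transporter genes Slc16a8 and Slc16a1, their chaperone Bsg, the glucose transporter gene Slc2a1, Ldhb and Pdk2. Another 12 had it in photoreceptor-like cells in all 4 libraries: Hk1, Hk2, Gpi1, Pfkp, Tpi1, Gapdh, Pgam1, Eno1, Eno2, Pkm, Ldha and Pfkfb2. Slc2a1, Slc16a1, Slc16a8, Bsg and the lactate dehydrogenase B subunit were thus on the RPE side, and the other transporter genes, Slc2a3, Slc16a3 and Slc16a7, were not. Most enzymes of the chain, with the A subunit, were on the photoreceptor side. Clusters left unnamed were not among the classes ranked. One of them, with 79 WT cells at 2 months, had more Pdk2 than RPE-like cells, 126.1 CPM (106.5 to 148.3) beside 73.3 CPM. Ldhb in those 79 cells was at 623 CPM, beside 671 CPM in WT RPE-like cells. A photoreceptor-like cluster described with the photoreceptor comparison was small at 1 month and carried most UMIs of that class at 2 months. Without it, Tpi1 was no longer highest in photoreceptor-like cells of the WT library at 1 month. Cells were clustered on these genes among others, so the class differences are a description and carry no test.

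**Figure D1:**
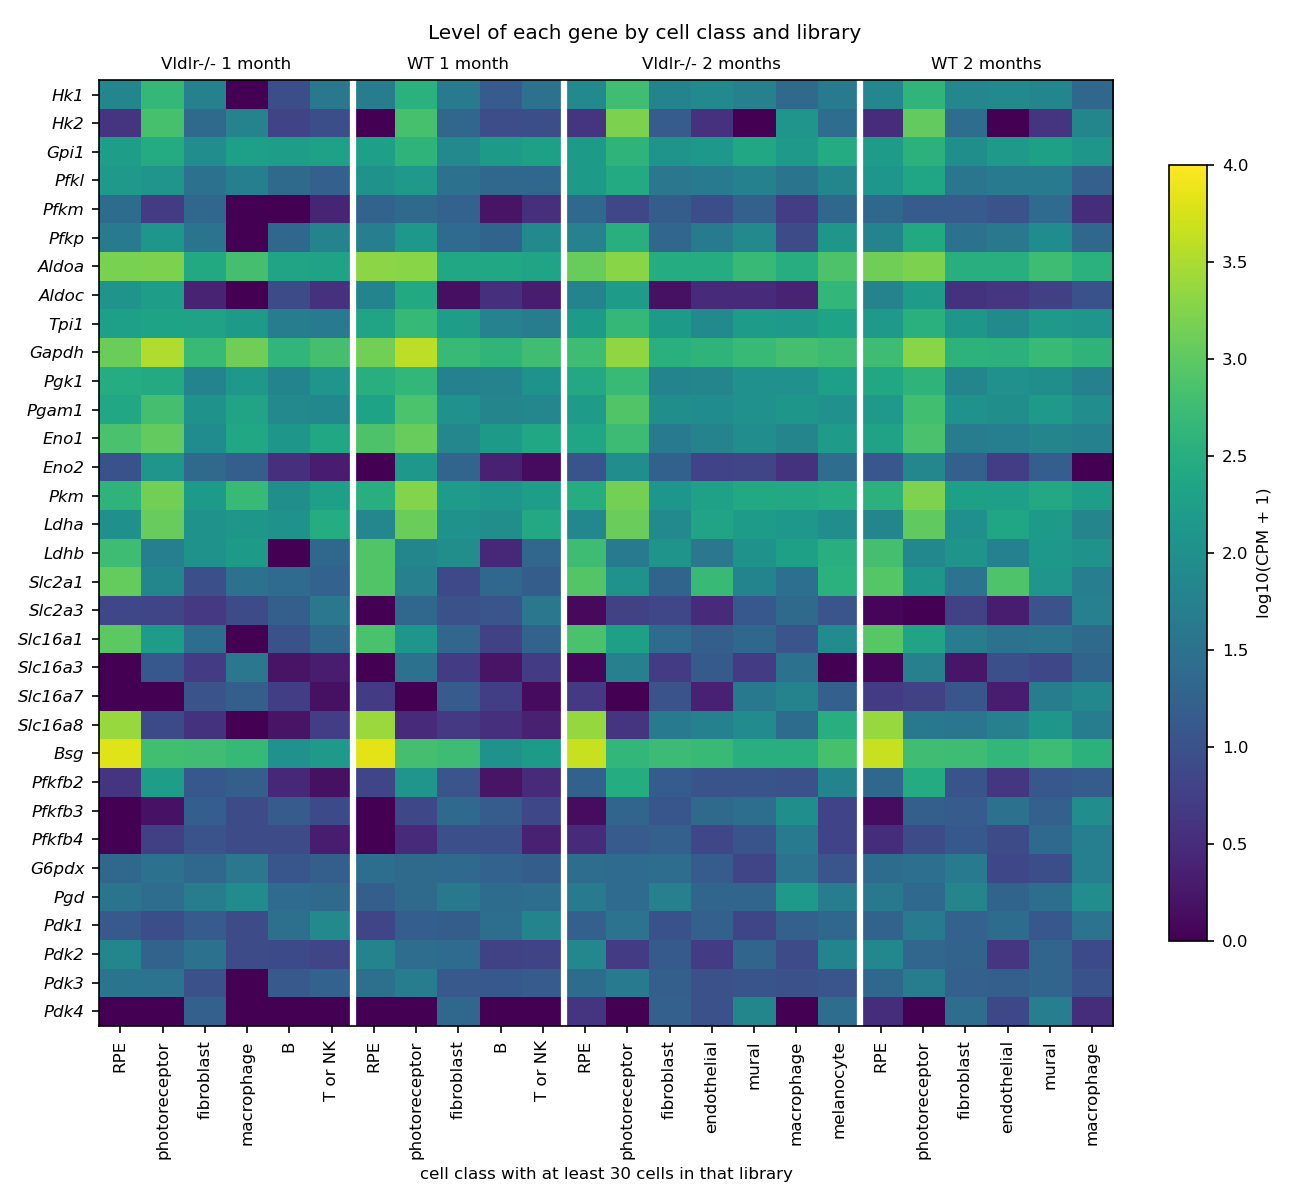
Level of each of the 33 genes, as log10(CPM + 1), in every cell class with at least 30 cells, grouped by library (1 column per class, 1 library per group). Slc16a8, Bsg, Slc16a1 and Slc2a1 are brightest in the RPE columns of all 4 libraries, and Hk2, Ldha and Eno2 are brightest in the photoreceptor columns.

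In RPE-like cells Bsg reached 6316 CPM in Vldlr-/- and 6896 CPM in WT cells at 1 month, and 4531 CPM in Vldlr-/- and 4544 CPM in WT cells at 2 months. In photoreceptor-like cells it had 616 CPM in Vldlr-/- and 655 CPM in WT cells at 1 month, and 451 CPM in Vldlr-/- and 589 CPM in WT cells at 2 months. The RPE-like level was thus 10.3-fold higher in Vldlr-/- and 10.5-fold higher in WT cells at 1 month, and 10.04-fold higher in Vldlr-/- and 7.72-fold higher in WT cells at 2 months. Slc16a1, which encodes MCT1, was 6.19-fold higher in RPE-like than in photoreceptor-like cells of the Vldlr-/- and 5.73-fold higher in those of the WT library at 1 month, and 3.88-fold (Vldlr-/-) and 4.24-fold (WT) higher at 2 months. For Ldhb, which encodes the lactate dehydrogenase subunit common in tissues that burn lactate, the same folds were 10.8 in Vldlr-/- and 12.04 in WT cells at 1 month, and 12.7 in Vldlr-/- and 9.11 in WT cells at 2 months. Pdk2, a kinase that holds back pyruvate dehydrogenase, had 69.7 CPM in RPE-like cells of the Vldlr-/- library at 2 months beside 63.2 CPM in its 32 melanocyte-like cells, with intervals of 64.01 to 75.8 and 32.6 to 110.4 CPM that overlapped.

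Slc2a1 was shared between both sides of the barrier at 2 months. Endothelial-like cells, the cells of the choroidal vessels, held 488 CPM in Vldlr-/- and 780.2 CPM in WT cells, next to 854 CPM in Vldlr-/- and 880.0 CPM in WT cells for RPE-like cells. At least 1 Slc2a1 UMI was found in 82.7% of Vldlr-/- and 92% of WT RPE-like cells and in 71.6% of Vldlr-/- and 66.2% of WT endothelial-like cells. Fibroblast-like cells gave 10.9% in Vldlr-/- and 18.1% in WT. Their median depth was 9521 UMIs in Vldlr-/- and 9572 UMIs in WT, beside 9516 UMIs in Vldlr-/- and 8086 UMIs in WT RPE-like cells. With each cell thinned to 1000 UMIs the shares were 47.4% of Vldlr-/- and 54.3% of WT RPE-like cells, 27.9% of Vldlr-/- and 39.1% of WT endothelial-like cells, and 1.82% of Vldlr-/- and 1.59% of WT fibroblast-like cells.

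Slc16a8 was far higher in RPE-like cells than in any other named class. It had 2372 CPM in Vldlr-/- and 2515 CPM in WT cells at 1 month, and 2358 CPM in Vldlr-/- and 2373 CPM in WT cells at 2 months. A UMI of it was found in 86.6% of Vldlr-/- and 94% of WT cells at 1 month and 88.9% of Vldlr-/- and 97% of WT cells at 2 months. With cells thinned to 1000 UMIs the shares were 93.4% of 106 Vldlr-/- and 91.2% of 182 WT cells at 1 month, in the opposite order, and 79.8% of Vldlr-/- and 86.5% of WT cells at 2 months. Over the other named classes the highest level was 13.6% of the RPE-like level, in the 32 melanocyte-like cells of the Vldlr-/- library at 2 months. Ttr, the abundant thyroid hormone carrier of the RPE, stood at 11.7% there. The unnamed cluster led by Pmel, Cox8b and Trpm1, which is rich in RPE markers, was not among the classes compared. Photoreceptor-like cells, which should lack it, with 3046 median UMIs in Vldlr-/- and 2658 in WT at 2 months, held one in 1.15% of Vldlr-/- and 0.952% of WT cells at 1 month and in 6.12% of Vldlr-/- and 9.35% of WT cells at 2 months. At 2 months the shares of Slc16a8 and Ttr lay close in fibroblast-like cells and in Vldlr-/- mural-like cells. The shares of Slc16a8 and Ttr lay further apart in macrophage-like cells and in WT mural-like cells. In fibroblast-like cells at 2 months its level was 1.88% of the RPE level in Vldlr-/- and 1.54% in WT, beside 1.56% in Vldlr-/- and 1.56% in WT for Ttr. In mural-like cells, the pericytes and muscle cells of vessels, it was 3.56% in Vldlr-/- and 5.47% in WT, beside 3.48% in Vldlr-/- and 9.76% in WT for Ttr. In macrophage-like cells it was 1.05% in Vldlr-/- and 2.02% in WT, beside 0.35% in Vldlr-/- and 5.15% in WT for Ttr. No expression outside the RPE is read from these levels, and the part of free RNA in them was not tested.

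On the photoreceptor side, Hk2, which encodes the hexokinase typical of strongly glycolytic cells, had 674 CPM in Vldlr-/- and 685 CPM in WT cells at 1 month, and 1599 CPM in Vldlr-/- and 1085 CPM in WT cells at 2 months. RPE-like cells had 1 UMI in Vldlr-/- and 0 UMIs in WT cells at 1 month and 24 UMIs in Vldlr-/- and 32 UMIs in WT cells at 2 months. At 2 months the photoreceptor level was 528-fold higher in Vldlr-/- and 491-fold higher in WT. An Hk2 UMI was found in 91.8% of Vldlr-/- and 75.7% of WT photoreceptor-like cells at 2 months and in 2.72% of Vldlr-/- and 2.15% of WT RPE-like cells. These shares were not thinned. The cluster with most UMIs of the photoreceptor-like class at 2 months had a median of 17588 UMIs per cell in Vldlr-/- and 3704 in WT. The Hk2 shares are thus not compared between the libraries. Ldha, the subunit that favours lactate production, had 1165 CPM in Vldlr-/- and 1278 CPM in WT cells at 1 month, and 1211 CPM in Vldlr-/- and 1058 CPM in WT cells at 2 months. That was 11.5-fold (Vldlr-/-) and 18.3-fold (WT) above the RPE-like level at 1 month and 16.4-fold (Vldlr-/-) and 15.6-fold (WT) above it at 2 months. Enzymes of the common chain differed less: Gapdh, which oxidises glyceraldehyde phosphate, was 2.71-fold (Vldlr-/-) and 2.86-fold (WT) higher in photoreceptor-like than in RPE-like cells at 1 month and 3.74-fold (Vldlr-/-) and 3.38-fold (WT) higher at 2 months. Eno2, the neuronal enolase, was 9.10-fold (Vldlr-/-) and 6.47-fold (WT) higher at 2 months.

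At the ages given below, several further genes had their highest level in immune, vessel, fibroblast-like or photoreceptor-like cells. At 2 months Pfkfb3, an enzyme that makes the phosphofructokinase activator fructose-2,6-bisphosphate, was highest in macrophage-like cells, with 96.3 CPM in Vldlr-/- and 88.9 CPM in WT cells. The same class was highest at that age for the related Pfkfb4 (42.3 CPM in Vldlr-/- and 52.5 CPM in WT cells) and for the glucose transporter gene Slc2a3 (23.3 CPM in Vldlr-/- and 54.7 CPM in WT cells). It was also highest for the lactate transporter gene Slc16a7 (59.8 CPM in Vldlr-/- and 72.97 CPM in WT cells) and for both pentose phosphate genes: G6pdx, the enzyme of entry into that pathway, had 32.1 CPM in Vldlr-/- and 52.5 CPM in WT cells, and Pgd, which follows it, had 139 CPM in Vldlr-/- and 91.2 CPM in WT cells. T or NK-like lymphocytes were highest for Slc2a3 and Pdk1 at 1 month, Pdk1 with 74.3 CPM in Vldlr-/- and 63.9 CPM in WT cells. Pdk4, a pyruvate dehydrogenase kinase known to rise on fasting, was highest in fibroblast-like cells at 1 month (15.7 CPM in Vldlr-/- and 20.5 CPM in WT cells) and in mural-like cells at 2 months (66.4 CPM in Vldlr-/- and 49.7 CPM in WT cells). Slc16a3, which encodes the lactate exporter MCT4, had 30.6 CPM in Vldlr-/- and 18.2 CPM in WT macrophage-like cells at 2 months and its highest level in photoreceptor-like cells, with 53.9 CPM in Vldlr-/- and 54.9 CPM in WT cells.

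The promoters of 4 genes are shown because these genes mark the opposite ends of the divide: Slc16a8 and Ldhb were highest in RPE-like cells, Ldha and Hk2 in photoreceptor-like cells. Each window runs from 250 bases before to 50 bases after a gene's start on the gene's own strand, from RefSeq (build GRCm38.p6). Slc16a8 lies at chr15:79254699-79254998 on the minus strand, Ldhb at chr6:142507908-142508207 on the minus strand, Ldha at chr7:46845554-46845853 on the plus strand (the first of 2 windows of that gene) and Hk2 at chr6:82774405-82774704 on the minus strand. Capitals mark ACGTG and GCGTG, the cores that hypoxia-inducible factors recognise, in either orientation, so that CACGT and CACGC are the same letters on the other strand, and CACGTG holds ACGTG on both strands.
Slc16a8: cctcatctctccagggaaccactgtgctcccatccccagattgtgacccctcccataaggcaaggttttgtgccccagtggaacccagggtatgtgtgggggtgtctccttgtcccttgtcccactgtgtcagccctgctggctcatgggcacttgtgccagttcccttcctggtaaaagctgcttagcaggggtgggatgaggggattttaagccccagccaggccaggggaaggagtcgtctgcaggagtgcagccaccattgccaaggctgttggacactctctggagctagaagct
Ldhb: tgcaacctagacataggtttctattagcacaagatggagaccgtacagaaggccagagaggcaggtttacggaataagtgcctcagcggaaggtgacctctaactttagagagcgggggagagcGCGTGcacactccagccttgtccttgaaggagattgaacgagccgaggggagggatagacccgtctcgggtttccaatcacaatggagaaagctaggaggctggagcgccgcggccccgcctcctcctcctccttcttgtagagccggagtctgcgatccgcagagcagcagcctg
Ldha: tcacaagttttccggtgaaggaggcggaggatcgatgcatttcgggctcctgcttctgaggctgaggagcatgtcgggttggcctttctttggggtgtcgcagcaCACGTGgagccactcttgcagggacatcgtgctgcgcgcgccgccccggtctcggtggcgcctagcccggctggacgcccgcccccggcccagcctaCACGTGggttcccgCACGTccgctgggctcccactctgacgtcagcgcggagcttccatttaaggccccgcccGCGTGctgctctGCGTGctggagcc
Hk2: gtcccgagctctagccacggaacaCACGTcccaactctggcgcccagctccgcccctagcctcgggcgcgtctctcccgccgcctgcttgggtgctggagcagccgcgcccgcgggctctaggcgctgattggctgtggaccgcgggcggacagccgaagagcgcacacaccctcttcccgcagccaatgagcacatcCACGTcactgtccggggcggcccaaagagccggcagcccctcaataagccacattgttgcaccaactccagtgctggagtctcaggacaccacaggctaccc
The window of Slc16a8 held neither core and that of Ldhb held 1 GCGTG, whereas that of Ldha held 5 ACGTG and 2 GCGTG and that of Hk2 held 2 ACGTG. Windows were found for 30 of the 33 genes, all but Bsg, Slc2a3 and Slc16a7, and came to 47 in all. ACGTG stood in 22 of the 47 (46.8%) against 19.6% of the 32851 windows of all genes, and GCGTG stood in 26 (55.3%) against 32.4%. Either core stood in 36 windows (76.6%), and in at least 1 window of 26 of the 30 genes, against 43.8% of all windows. The longer E-box CACGTG stood in 6 windows (12.8%), those of Pfkfb2, Pfkfb3, Slc16a1, Ldha, Pdk2 and Pfkm, against 7.15% of all. The E-box CATGTG stood in 1 window, that of Hk1 (2.13%), against 14.2% of all. TAATCC, a core known for photoreceptor homeobox factors, stood in 5 (10.6%) against 7.06%. The cores did not follow the divide over the other genes. Slc16a1, highest in RPE-like cells, held 5 of either core in its window, and Slc2a1, also highest there, held 2. Gpi1, Tpi1 and Eno2, highest in photoreceptor-like cells, held 0. A match is a description of letters only.

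Where 2 or more genes encode the same step, their shares of UMIs differed between classes (plot of the share of 1 paralog by class). Ldhb made up 85.1% (79.7 to 89.5%) of the Ldha and Ldhb UMIs in Vldlr-/- and 92.2% (89.3 to 94.5%) in WT RPE-like cells at 1 month, and 88.5% (87.6 to 89.4%) in Vldlr-/- and 90.8% (90.2 to 91.3%) in WT cells at 2 months. In photoreceptor-like cells it made up 4.36% in Vldlr-/- and 5.07% in WT cells at 1 month, and 3.58% in Vldlr-/- and 6.5% in WT cells at 2 months. Fibroblast-like cells lay between, at 48.9% in Vldlr-/- and 46.5% in WT cells at 1 month, and 59% in Vldlr-/- and 54.3% in WT cells at 2 months. The Ldhb share of RPE-like cells was lower in Vldlr-/- than in WT at both ages, and the counting intervals of the pair overlapped at 1 month and did not at 2 months.

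Hk2 took 3.63% of hexokinase 1 and 2 UMIs in Vldlr-/- and 3.08% in WT RPE-like cells at 2 months, against 73.3% in Vldlr-/- and 72.3% in WT photoreceptor-like cells and 83.8% in Vldlr-/- and 76.9% in WT macrophage-like cells. RPE-like cells thus counted mostly Hk1, the housekeeping form bound to mitochondria. Of the 4 monocarboxylate transporter genes in the list, Slc16a8 took 70.6% of UMIs in Vldlr-/- and 77.9% in WT RPE-like cells at 1 month, and 76.6% in Vldlr-/- and 72% in WT cells at 2 months. Slc16a1 took nearly all of the rest, 29.4% in Vldlr-/- and 22% in WT cells at 1 month, and 23.3% in Vldlr-/- and 27.9% in WT cells at 2 months. The balance thus lay further toward Slc16a1 in Vldlr-/- at 1 month and further toward Slc16a8 in Vldlr-/- at 2 months.

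Pfkl, the liver form of phosphofructokinase, held 65.1% of the enzyme's UMIs in Vldlr-/- and 60.5% in WT RPE-like cells at 2 months, and Pfkp, the platelet form, held 25.2% in Vldlr-/- and 29.5% in WT. In photoreceptor-like cells the Pfkp share was 54% in Vldlr-/- and 52.2% in WT at that age. Pfkfb2 supplied 86.5% of Pfkfb2, Pfkfb3 and Pfkfb4 UMIs in Vldlr-/- and 88.7% in WT RPE-like cells, against 5.94% in Vldlr-/- and 8.82% in WT macrophage-like cells. Among the pyruvate dehydrogenase kinases, Pdk2 led in RPE-like cells with 61.2% in Vldlr-/- and 63.8% in WT at 2 months, and Pdk1 led in T or NK-like cells with 76.2% in Vldlr-/- and 77.2% in WT at 1 month.

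**Figure D2:**
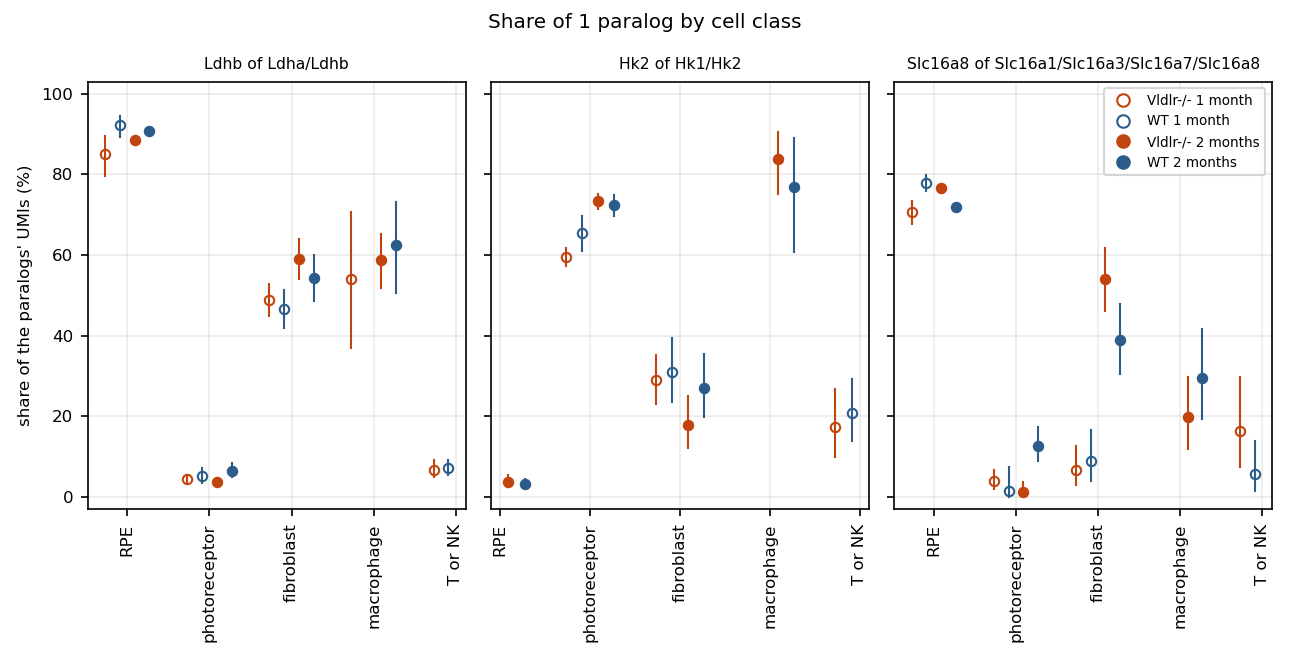
Share of paralog UMIs (%) taken by Ldhb, Hk2 and Slc16a8 in 5 cell classes, with 1 point per library and its exact 95% counting interval, shown where a class had at least 30 cells and 30 UMIs of the paralogs. Ldhb and Slc16a8 lie near the top in RPE-like cells of all 4 libraries, and Hk2 lies near 0 there and above 50% in photoreceptor-like cells.

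The design asks what changes in Vldlr-/- tissue, and in RPE-like cells 1 of these genes was called at 1 month and 0 at 2 months (plots of level and of ratio by age). A gene was called when it had at least 30 UMIs over the pair and levels at least 1.5-fold apart, with the ratio given as log2 of Vldlr-/- over WT after adding 0.5 counts. At 1 month 19 of the 33 genes could be read. Of these 1, Aldoc, was called higher and 0 were called lower. Over all 3280 genes read at that age 13% were called higher and 9.33% lower, the background below. At 2 months 30 could be read and 0 were called in either direction, against 9.88% higher and 3.15% lower over 11775 genes. The median log2 ratio of the genes was -0.08 at 1 month, beside 0.02 over all genes read, and 0.00 at 2 months, beside 0.07. Ratios at 2 months ran between -0.36 and 0.46.

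By counting error alone, 3 genes lay above 0 at 1 month (Aldoc, Slc2a1 and Slc16a1; background 9.51%) and 4 below it (Aldoa, Gapdh, Ldhb and Bsg; background 7.56%). At 2 months 6 lay above 0 (Hk1, Pfkl, Tpi1, Pgk1, Pgam1 and Eno1; background 21.1%) and 7 below it (Gpi1, Aldoa, Pkm, Ldhb, Slc2a1, Slc16a1 and Pfkfb2; background 10.4%). Of the 19 genes read at both ages, 5 had a higher level in Vldlr-/- at both (Hk1, Pfkl, Aldoc, Pgam1 and Ldha), 7 a lower one at both (Gpi1, Pfkp, Aldoa, Gapdh, Ldhb, Slc16a8 and Bsg), and 7 lay on different sides of WT at the 2 ages. Each of the first 5 changed sign at 1 of the ages under at least 1 other setting. Of the 7 lower at both, Gpi1 and Gapdh did so at 2 months, and Pfkp, Slc16a8 and Bsg at both ages. Aldoa and Ldhb kept their sign under all settings tried. Aldoa and Ldhb were the genes whose interval lay on the same side of 0 at both ages, both lower in Vldlr-/-.

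**Figure D3:**
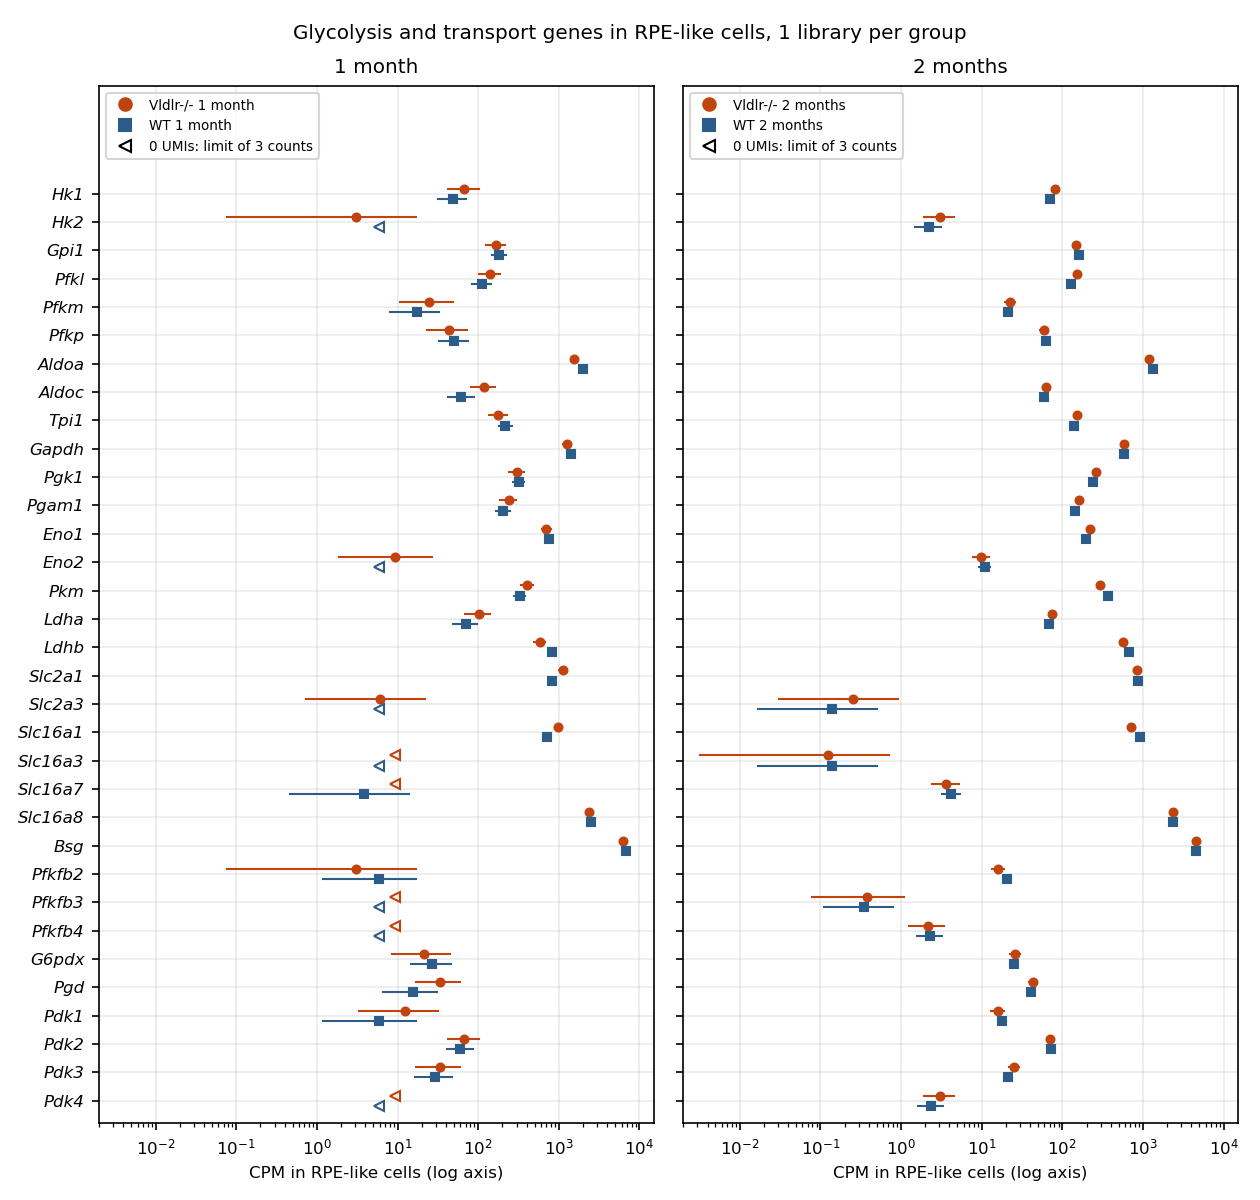
Level of each gene in RPE-like cells (CPM, log axis) at 1 month (left) and 2 months (right), with Vldlr-/- as circles above WT as squares, bars for exact 95% Poisson intervals and open triangles for the limit of 3 counts where no UMI was found. The pair of points lies close for nearly every gene, and Slc2a3, Slc16a3 and Pfkfb3 are near the bottom of the axis at 2 months.

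In RPE-like cells Slc2a1, the entry point of glucose, had 1122 CPM in Vldlr-/- and 824 CPM in WT cells at 1 month, a log2 ratio of 0.44 (0.24 to 0.65), and 854 CPM in Vldlr-/- and 880.0 CPM in WT cells at 2 months, a log2 ratio of -0.04 (-0.09 to -0.00). The level was on the higher side in Vldlr-/- at 1 month and close to WT at 2 months, and neither difference reached 1.5-fold. Slc2a3, the neuronal and leukocyte glucose transporter gene, had 2 UMIs in Vldlr-/- and 0 UMIs in WT cells at 1 month and 2 UMIs in Vldlr-/- and 2 UMIs in WT cells at 2 months, and was not read at either age. Hk1 stood at 67.4 CPM in Vldlr-/- and 48.5 CPM in WT cells at 1 month, and 80.6 CPM in Vldlr-/- and 69.6 CPM in WT cells at 2 months, with log2 ratios of 0.48 (-0.42 to 1.36) and 0.21 (0.07 to 0.35). Hk2 was read at 2 months only, at 3.03 CPM in Vldlr-/- and 2.21 CPM in WT cells, a log2 ratio of 0.46 (-0.37 to 1.26).

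Along the first steps of the chain, Gpi1, which converts glucose-6-phosphate to fructose-6-phosphate, had 165 CPM in Vldlr-/- and 182 CPM in WT cells at 1 month, and 148 CPM in Vldlr-/- and 159.8 CPM in WT cells at 2 months, and its log2 ratio at 2 months was -0.11 (-0.22 to -0.01). Pfkl, one of the genes for the committed step, had 141 CPM in Vldlr-/- and 111 CPM in WT cells at 1 month, and 152 CPM in Vldlr-/- and 127 CPM in WT cells at 2 months. Its log2 ratios were 0.35 (-0.24 to 0.94) at 1 month and 0.26 (0.15 to 0.36) at 2 months. Pfkp had 42.9 CPM in Vldlr-/- and 50.4 CPM in WT cells at 1 month, and 58.8 CPM in Vldlr-/- and 62.03 CPM in WT cells at 2 months. The muscle form Pfkm had 8 UMIs in Vldlr-/- and 9 UMIs in WT cells at 1 month and 22.6 CPM in Vldlr-/- and 21 CPM in WT cells at 2 months. Aldoa, the main aldolase, which splits the sugar, had 1554 CPM in Vldlr-/- and 1984 CPM in WT cells at 1 month, and 1185 CPM in Vldlr-/- and 1339 CPM in WT cells at 2 months. Its log2 ratio was -0.35 (-0.51 to -0.20) at 1 month and -0.18 (-0.21 to -0.14) at 2 months, the lower level in Vldlr-/- at both ages but under 1.5-fold. Aldoc, the brain aldolase, lay on the other side and was called higher at 1 month: 116 CPM in Vldlr-/- and 62.1 CPM in WT cells came from 38 UMIs in Vldlr-/- and 32 UMIs in WT cells, a log2 ratio of 0.90 (0.19 to 1.63). At 2 months it had 63.1 CPM in Vldlr-/- and 59.96 CPM in WT cells, a log2 ratio of 0.08 (-0.09 to 0.23), and was not called. Photoreceptor-like cells held 172 CPM of Aldoc in Vldlr-/- and 271 CPM in WT at 1 month. The Vldlr-/- RPE-like cells had the higher rod marker sum at that age, and its part in the Aldoc call was not tested.

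In the middle of the chain, triose phosphate isomerase (Tpi1) had 178 CPM in Vldlr-/- and 217 CPM in WT cells at 1 month, and 153 CPM in Vldlr-/- and 139 CPM in WT cells at 2 months. Gapdh had 1250.3 CPM in Vldlr-/- and 1419 CPM in WT cells at 1 month, and 580.2 CPM in Vldlr-/- and 581 CPM in WT cells at 2 months, with log2 ratios of -0.18 (-0.36 to -0.01) and 0.00 (-0.05 to 0.05). Pgk1, which makes the first ATP, had 300.3 CPM in Vldlr-/- and 320.0 CPM in WT cells at 1 month, and 260.1 CPM in Vldlr-/- and 243 CPM in WT cells at 2 months. At 2 months the log2 ratio of Tpi1 was 0.14 (0.03 to 0.24) and that of Pgk1 was 0.10 (0.02 to 0.18). These 3 enzymes lay on the lower side in Vldlr-/- at 1 month and near or above WT at 2 months, each within 1.5-fold. Phosphoglycerate mutase (Pgam1) had 239 CPM in Vldlr-/- and 206 CPM in WT cells at 1 month, and 160.0 CPM in Vldlr-/- and 143 CPM in WT cells at 2 months, with a log2 ratio of 0.17 (0.06 to 0.27) at 2 months. Eno1, the common enolase, had 699 CPM in Vldlr-/- and 754 CPM in WT cells at 1 month, and 221 CPM in Vldlr-/- and 198 CPM in WT cells at 2 months. Eno2 had 3 UMIs in Vldlr-/- and 0 UMIs in WT cells at 1 month and 9.98 CPM in Vldlr-/- and 10.98 CPM in WT cells at 2 months. The log2 ratios of Eno1 were -0.11 (-0.35 to 0.13) and 0.16 (0.07 to 0.25). Its near-copy Eno1b held 402 UMIs over all barcodes beside 13928 for Eno1, and how the counting split reads between them is not known here. Pyruvate kinase (Pkm), the last step, had 405 CPM in Vldlr-/- and 326 CPM in WT cells at 1 month, a log2 ratio of 0.31 (-0.03 to 0.65), and 294 CPM in Vldlr-/- and 369.9 CPM in WT cells at 2 months, a log2 ratio of -0.33 (-0.40 to -0.26). The 1-month interval included 0 and the 2-month interval lay below it.

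At the step between pyruvate and lactate, Ldhb had the lower level in Vldlr-/- RPE-like cells at both ages, under 1.5-fold apart. It had 576 CPM in Vldlr-/- and 822 CPM in WT cells at 1 month, a log2 ratio of -0.51 (-0.77 to -0.26), and 569 CPM in Vldlr-/- and 671 CPM in WT cells at 2 months, a log2 ratio of -0.24 (-0.29 to -0.19). Ldha had 101 CPM in Vldlr-/- and 69.8 CPM in WT cells at 1 month, and 73.9 CPM in Vldlr-/- and 67.97 CPM in WT cells at 2 months, with log2 ratios of 0.54 (-0.19 to 1.26) and 0.12 (-0.03 to 0.27). The log2 ratio of Ldhb kept its sign under all processing alternatives tried at both ages, and at 1 month it passed 1.5-fold under 4 of them.

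Of the lactate transporters, Slc16a8 and the chaperone Bsg stayed near their WT levels over the whole RPE-like class, though not in each of its clusters. Slc16a8 had log2 ratios of -0.08 (-0.21 to 0.04) at 1 month and -0.01 (-0.03 to 0.02) at 2 months, and Bsg had -0.13 (-0.21 to -0.05) and 0.00 (-0.02 to 0.01). Slc16a1 had 989.8 CPM in Vldlr-/- and 709.7 CPM in WT cells at 1 month, a log2 ratio of 0.48 (0.26 to 0.70), and 716 CPM in Vldlr-/- and 919.8 CPM in WT cells at 2 months, a log2 ratio of -0.36 (-0.41 to -0.32). It was on the higher side in Vldlr-/- at 1 month and on the lower side at 2 months, each under 1.5-fold, and the difference between ages was not tested. With at least 1000 genes per barcode its 1-month log2 ratio was 0.80, past the 1.5-fold limit. Slc16a7, which encodes MCT2, had 0 UMIs in Vldlr-/- and 2 UMIs in WT cells at 1 month and 3.66 CPM in Vldlr-/- and 4.21 CPM in WT cells at 2 months. Slc16a3 had 0 UMIs in Vldlr-/- and 0 UMIs in WT cells at 1 month and 1 UMI in Vldlr-/- and 2 UMIs in WT cells at 2 months. The counts of 0 allow up to 9.19 CPM in Vldlr-/- and 5.82 CPM in WT, which is 3 counts.

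All of the regulators but Pdk2 had under 30 UMIs over the pair of RPE-like sums at 1 month. Pfkfb2 had 1 UMI in Vldlr-/- and 3 UMIs in WT cells at 1 month and 16.2 CPM in Vldlr-/- and 20.6 CPM in WT cells at 2 months, a log2 ratio of -0.35 (-0.66 to -0.05). Pfkfb3 had 0 UMIs in Vldlr-/- and 0 UMIs in WT cells at 1 month and 3 UMIs in Vldlr-/- and 5 UMIs in WT cells at 2 months. Pfkfb4 had 0 UMIs in Vldlr-/- and 0 UMIs in WT cells at 1 month and 2.15 CPM in Vldlr-/- and 2.28 CPM in WT cells at 2 months. The activator-making enzymes other than Pfkfb2 were thus near the limit of detection. G6pdx had 7 UMIs in Vldlr-/- and 14 UMIs in WT cells at 1 month and 26.1 CPM in Vldlr-/- and 25.1 CPM in WT cells at 2 months. Pgd had 11 UMIs in Vldlr-/- and 8 UMIs in WT cells at 1 month and 43.1 CPM in Vldlr-/- and 40.8 CPM in WT cells at 2 months. Both pentose phosphate genes were close to WT at 2 months, with log2 ratios of 0.06 (-0.20 to 0.31) and 0.08 (-0.12 to 0.27). Pdk2 had 67.4 CPM in Vldlr-/- and 60.1 CPM in WT cells at 1 month, and 69.7 CPM in Vldlr-/- and 73.3 CPM in WT cells at 2 months. Pdk1, the kinase known as a target of hypoxia signalling, had 4 UMIs in Vldlr-/- and 3 UMIs in WT cells at 1 month and 15.9 CPM in Vldlr-/- and 17.96 CPM in WT cells at 2 months. Pdk3 had 11 UMIs in Vldlr-/- and 15 UMIs in WT cells at 1 month and 25.3 CPM in Vldlr-/- and 21.3 CPM in WT cells at 2 months. Pdk4 had 0 UMIs in Vldlr-/- and 0 UMIs in WT cells at 1 month and 3.03 CPM in Vldlr-/- and 2.35 CPM in WT cells at 2 months. None of these kinases was called at either age in the whole RPE-like class.

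**Figure D4:**
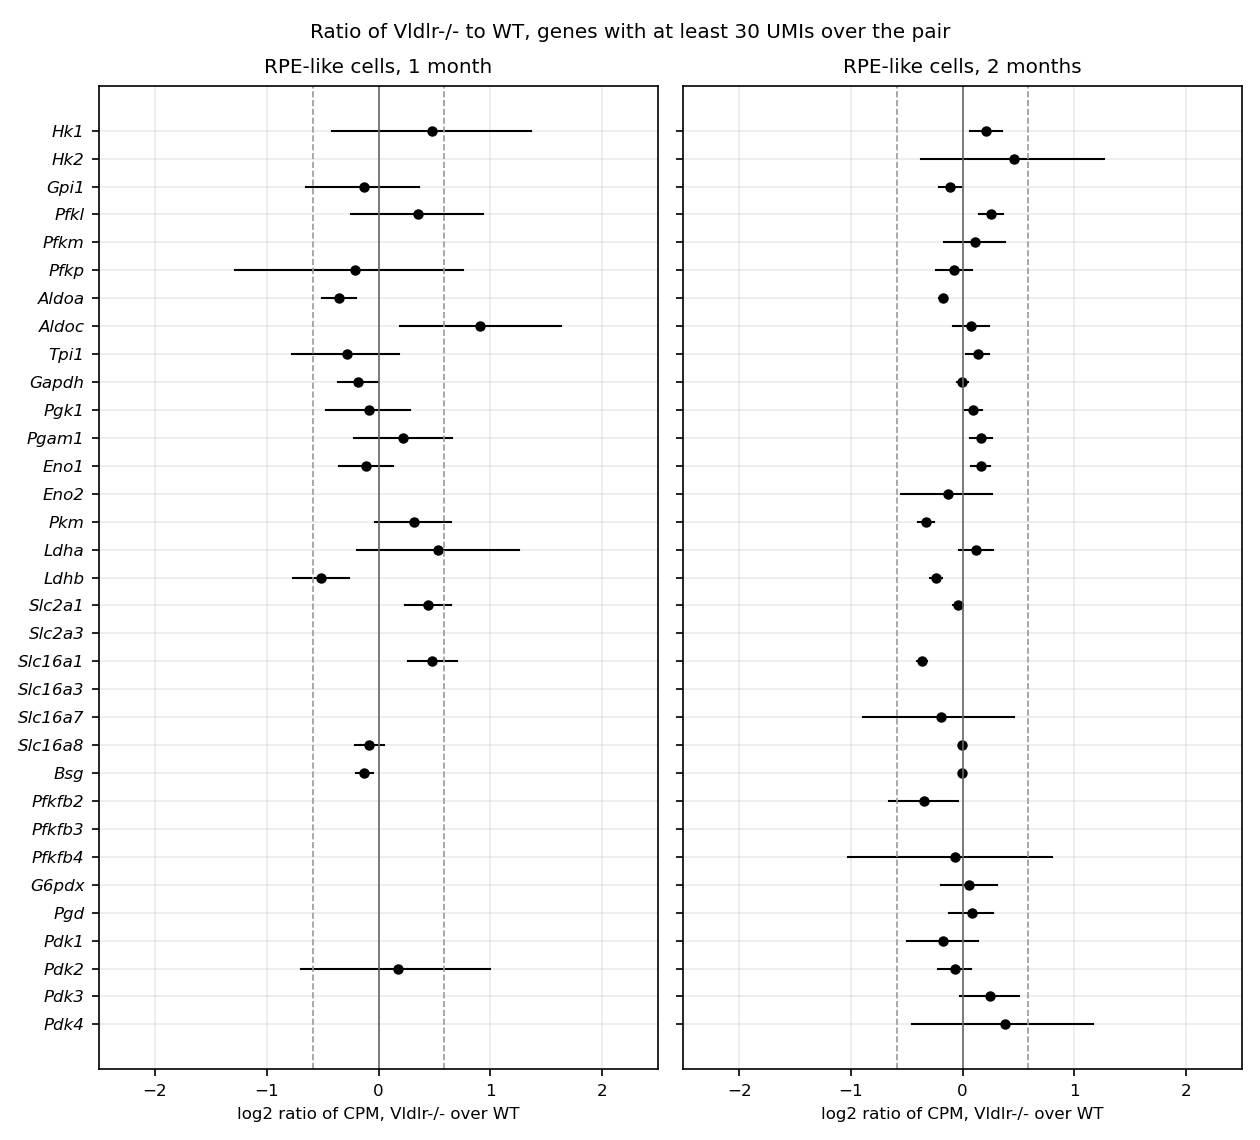
Log2 ratio of CPM, Vldlr-/- over WT, in RPE-like cells at 1 month (left) and 2 months (right) for genes with at least 30 UMIs over the pair, with exact 95% counting intervals and dashed lines at 1.5-fold. Aldoc at 1 month is the 1 point beyond a dashed line, and at 2 months all 30 points lie between the lines.

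Barcodes rich in Malat1, a nuclear RNA, made up different parts of the RPE-like class at 2 months: 28.6% of Vldlr-/- and 12% of WT cells had at least 1000 CPM of Malat1. Read within each kind, the levels of Slc2a1 and Slc16a1 lay on opposite sides of WT (plot of ratios by Malat1 content). In Malat1-rich cells (168 Vldlr-/- and 162 WT cells) Slc2a1 had 842 CPM in Vldlr-/- and 579.8 CPM in WT cells, a log2 ratio of 0.54 (0.46 to 0.62). Slc16a1 had 569 CPM in Vldlr-/- and 454 CPM in WT cells, a log2 ratio of 0.33 (0.23 to 0.42). In Malat1-poor cells (420 Vldlr-/- and 1186 WT cells) Slc2a1 had 865 CPM in Vldlr-/- and 966 CPM in WT cells, a log2 ratio of -0.16 (-0.21 to -0.11). Slc16a1 in these cells had 848 CPM in Vldlr-/- and 1054 CPM in WT cells, a log2 ratio of -0.31 (-0.37 to -0.26). None of these 4 differences reached 1.5-fold, and the difference between the kinds was not tested.

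Slc16a8 and Bsg lay on the same sides with smaller ratios, and the interval of Slc16a8 in Malat1-poor cells included 0. Slc16a8 had log2 ratios of 0.25 (0.20 to 0.30) in Malat1-rich and -0.02 (-0.05 to 0.01) in Malat1-poor cells, and Bsg had 0.22 (0.19 to 0.26) in Malat1-rich and -0.08 (-0.10 to -0.06) in Malat1-poor cells. Ldhb and Pkm were on the lower side in Vldlr-/- in both kinds. Ldhb had log2 ratios of -0.16 (-0.25 to -0.08) in Malat1-rich and -0.33 (-0.40 to -0.26) in Malat1-poor cells, and Pkm had -0.13 (-0.25 to -0.01) and -0.42 (-0.51 to -0.32). Of 26 genes read in Malat1-rich cells, 0 were called higher (background 6.03%) and 4 were called lower in Vldlr-/- (background 7.78%). Pdk1 had 18.9 CPM in Vldlr-/- and 44.5 CPM in WT cells, a log2 ratio of -1.23 (-1.66 to -0.81), and Eno2 had 10.1 CPM in Vldlr-/- and 17.9 CPM in WT cells, a log2 ratio of -0.82 (-1.45 to -0.21). Pfkfb2 had 20.6 CPM in Vldlr-/- and 32.1 CPM in WT cells, a log2 ratio of -0.64 (-1.09 to -0.21), and Pfkp had 71.3 CPM in Vldlr-/- and 108 CPM in WT cells, a log2 ratio of -0.60 (-0.84 to -0.37). Pfkp held 31.3% of phosphofructokinase UMIs in Vldlr-/- and 46.7% in WT Malat1-rich cells. Of 29 genes read in Malat1-poor cells, 1 was called higher (background 5.31%), Pdk4 from 16 UMIs in Vldlr-/- and 28 UMIs in WT cells with a log2 ratio of 0.64 (-0.36 to 1.56), and 0 were called lower (background 5.77%).

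The Malat1-rich barcodes of the 2 libraries also differed in other ways: mitochondrially encoded UMIs made up 6.07% in Vldlr-/- and 9.25% in WT, and hemoglobin UMIs stood at 16.8 CPM in Vldlr-/- and 1018 CPM in WT. In Malat1-poor cells 1 gene, Gm42418, took 18.7% of UMIs in Vldlr-/- and 15.1% in WT, within the total that divides each level. The part of these differences in the ratios was not tested. Over the 5 RPE-like clusters at 2 months, the log2 ratio of Slc16a1 was below 0 in 4 clusters, between -0.68 and -0.26, and 0.37 in the cluster with 107 Vldlr-/- and 111 WT cells. Slc2a1 was likewise below 0 in the same 4, between -0.85 and -0.08, and 0.59 in that cluster. The lowest ratio of both genes came from the cluster whose WT cells held 9965 CPM of hemoglobin UMIs, against 133 CPM in its Vldlr-/- cells. Slc16a8 had a log2 ratio of -0.73 (-0.90 to -0.57) in that cluster, and Bsg had -0.74 (-0.86 to -0.63). Slc2a1, Slc16a1, Slc16a8 and Bsg were called lower there (background 16.8%). Pgd was called higher there (background 7.87%), with an interval of -0.27 to 1.91 that included 0. The part of hemoglobin RNA was not tested. Ldhb and Pkm were below 0 in all 5 clusters, Ldhb between -0.52 and -0.05 and Pkm between -0.83 and -0.12. Slc16a1 was itself among the 10 leading genes of 1 of those clusters, so its level there helped to form the cluster.

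**Figure D5:**
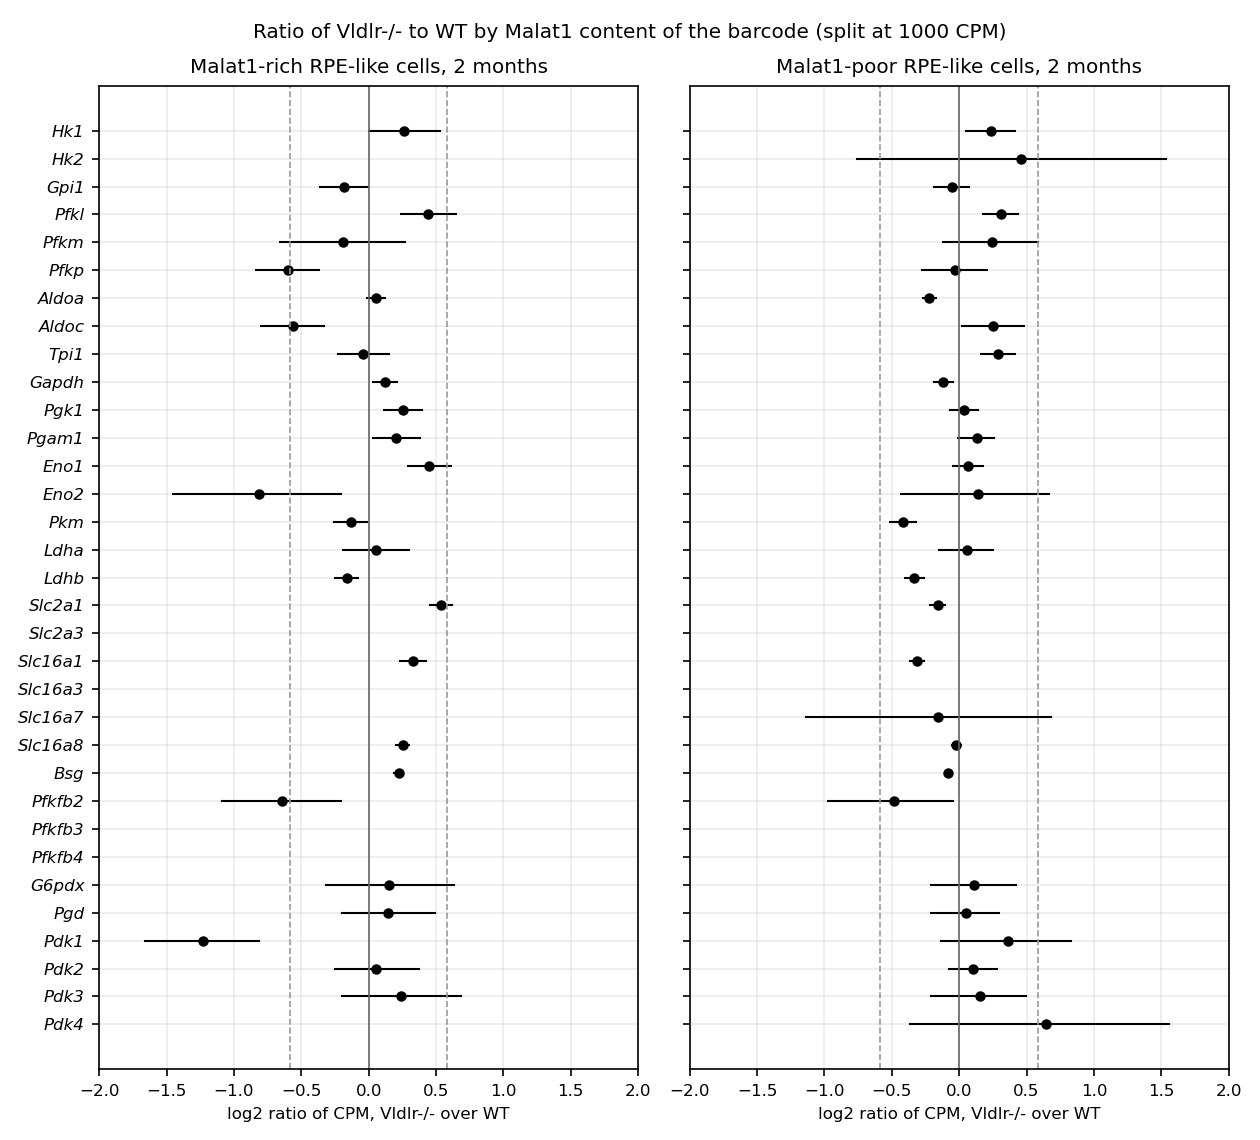
Log2 ratio of CPM, Vldlr-/- over WT, in Malat1-rich (left) and Malat1-poor (right) RPE-like cells at 2 months, for genes with at least 30 UMIs over the pair, with exact 95% counting intervals and dashed lines at 1.5-fold. Slc2a1, Slc16a1, Slc16a8 and Bsg lie right of 0 on the left panel and left of 0 on the right panel, and Ldhb and Pkm lie left of 0 on both.

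In other classes of the same libraries, 37 of 215 gene values read over 9 comparisons were called in either direction, beside 16.5% of the values of all genes in the same comparisons. Photoreceptor-like cells at 1 month (347 Vldlr-/- and 105 WT cells) had 5 of 25 genes called lower in Vldlr-/- (background 9.86%) and 0 called higher (background 14%). Tpi1 had 211 CPM in Vldlr-/- and 482 CPM in WT cells, a log2 ratio of -1.19. The others by log2 ratio were Pgk1 (-0.70), Aldoc (-0.66), Pdk3 (-0.63) and Slc16a3 (-1.37, from 20 UMIs in Vldlr-/- and 14 UMIs in WT cells). A small photoreceptor-like cluster led by Pcdh15 held 2 Vldlr-/- and 3 WT cells at 1 month, and the 3 WT cells carried 141 of the 226 Tpi1 UMIs and 52 of the 127 Aldoc UMIs of WT photoreceptor-like cells. Rod markers in those 3 WT cells summed to 591 CPM, against 81386 CPM in the WT cells of the largest photoreceptor-like cluster and 118147 CPM in those of the next, so the markers of these 3 cells go against the class name. Without that cluster Tpi1 had 211 CPM in Vldlr-/- and 211 CPM in WT cells, Aldoc had a log2 ratio of -0.13, Pgk1 had one of -0.46, and Slc16a3 fell under the minimum of 30 UMIs. Of the 24 genes then read, 1, Pdk3, with a log2 ratio of -0.65 (-1.39 to 0.19), was called lower (background 6.12%) and 0 higher (background 14.3%). Read in the 2 larger clusters separately, the first had 1 gene of 24 called higher, G6pdx, and 0 lower (backgrounds 11.9% and 10.6%). The second had 0 genes of 16 called higher and 1 lower, Aldoc (backgrounds 11.8% and 8.5%).

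At 2 months photoreceptor-like cells had 0 of 27 genes called higher (background 12.3%) and 2 called lower in Vldlr-/- (background 7.37%). Ldhb had 44.9 CPM in Vldlr-/- and 73.6 CPM in WT cells, a log2 ratio of -0.71 (-1.31 to -0.13), and Slc16a8 had 3 UMIs in Vldlr-/- and 32 UMIs in WT cells, a log2 ratio of -3.54 (-6.09 to -2.06). Both are genes with their highest level in the RPE, and summed RPE markers in this class stood at 162 CPM in Vldlr-/- and 1105 CPM in WT. The part of RPE RNA in these calls was not tested. Hk2 had 1599 CPM in Vldlr-/- and 1085 CPM in WT cells, a log2 ratio of 0.56 (0.44 to 0.68), under the 1.5-fold limit. The cluster led by Pcdh15, small at 1 month, held 27 of the 49 Vldlr-/- and 71 of the 107 WT photoreceptor-like cells at this age. It carried 948531 of the 1001967 Vldlr-/- and 708448 of the 801566 WT UMIs of the class. The 2-month levels of the class thus came mostly from it, and the 1-month levels mostly from other clusters.

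Macrophage-like cells at 2 months (55 Vldlr-/- and 57 WT cells) had the most calls, with 7 of 21 genes called higher in Vldlr-/- (background 12.8%) and 4 called lower (background 11.4%). Of the 7 on the higher side, all but Pgd of the pentose phosphate pathway were enzymes from hexokinase to lactate dehydrogenase. Gapdh had 652 CPM in Vldlr-/- and 392 CPM in WT cells, a log2 ratio of 0.73 (0.48 to 1.00). Ldha had 133 CPM in Vldlr-/- and 66.1 CPM in WT cells, a log2 ratio of 0.99 (0.39 to 1.66), and Hk2 had 121 CPM in Vldlr-/- and 68.4 CPM in WT cells, a log2 ratio of 0.81 (0.21 to 1.48). Pfkl (1.00), Pgk1 (0.84), Ldhb (0.77) and Pgd (0.59) were the others. On the lower side were Slc2a3 (-1.21), Slc16a8 (-0.94), Slc2a1 (-0.85) and G6pdx (-0.71). The intervals of Pfkl (-0.20 to 2.54), Slc16a8 (-1.96 to 0.04), Slc2a1 (-1.82 to 0.10) and G6pdx (-1.62 to 0.20) included 0. The median cell had 10723 UMIs in Vldlr-/- and 6278 in WT, and summed RPE markers stood at 514 CPM in Vldlr-/- and 2732 CPM in WT, whose part in these calls was not tested.

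In the vessel wall at 2 months the glucose transporter gene was on the lower side. Endothelial-like cells had 488 CPM in Vldlr-/- and 780.2 CPM in WT cells of Slc2a1, a log2 ratio of -0.68 (-0.83 to -0.53). They had 4 of 20 genes called lower in Vldlr-/- (Slc2a1, Pgk1 at -0.72, Slc16a1 at -0.96 and Pdk1 at -0.63, background 6.93%) with 0 higher (background 10.7%). Mural-like cells had 4 of 19 called lower, Slc2a1 (-0.93), Slc16a1 (-0.62), Slc16a8 (-0.62) and Bsg (-0.78; background 9.1%), and 0 higher (background 10.3%). All 4 are genes with their highest level in the RPE, and RPE markers stood at 2406 CPM in Vldlr-/- and 5729 CPM in WT mural-like cells. In endothelial-like cells the RPE marker sum was 1755 CPM in Vldlr-/- and 1872 CPM in WT. Fibroblast markers there summed to 1243 CPM in Vldlr-/- and 536 CPM in WT, and hemoglobin UMIs stood at 535 CPM in Vldlr-/- and 4.31 CPM in WT. The part of these markers in the calls of either class was not tested.

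Fibroblast-like cells had 2 of 30 genes called lower at 1 month (Slc2a3 at -1.29 and Pfkfb3 at -0.60, background 5.66%) and 0 higher (background 6.67%). At 2 months 7 of 30 were called lower in Vldlr-/- (background 5.97%) and 0 higher (background 8.41%). By log2 ratio these were Slc16a1 (-0.93), Hk2 (-0.92), Pdk1 (-0.92), Slc2a1 (-0.83), G6pdx (-0.75), Pdk4 (-0.73) and Pfkp (-0.65). Slc2a1 was at 18.1 CPM in Vldlr-/- and 32.3 CPM in WT cells and Slc16a1 at 24.2 CPM in Vldlr-/- and 45.99 CPM in WT cells. Macrophage markers summed to 582 CPM in Vldlr-/- and 320.5 CPM in WT fibroblast-like cells at that age, and their part in these calls was not tested. Lymphocytes at 1 month showed little: B-like cells had 2 of 20 called lower, Hk1 (-0.64) and G6pdx (-0.63; background 5.59%), and 0 higher (background 5.48%). T or NK-like cells had 0 of 23 called higher (background 5.11%) or lower (background 6.79%).

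Genes around the pathway were read in RPE-like cells from 5 further lists. Over all genes 13% were called higher and 9.33% lower at 1 month, and each list had 4 to 6 genes read at that age. At 1 month, of 38 other glycolysis and glycogen genes 4 were read and 1, G6pc3, a glucose-6-phosphatase, was called lower (33.7 CPM in Vldlr-/- and 63.99 CPM in WT cells, a log2 ratio of -0.88 with bounds of -2.06 and 0.10). Of 11 genes for pyruvate entry into mitochondria 6 were read. Pdhb had 42.9 CPM in Vldlr-/- and 91.1 CPM in WT cells, a log2 ratio of -1.05 with bounds of -2.06 and -0.20, and Dlat had 30.6 CPM in Vldlr-/- and 50.4 CPM in WT cells, a log2 ratio of -0.68 with bounds of -1.93 and 0.38. Both were called lower. Pdha1, named after its values were seen, was called higher from 23 UMIs in Vldlr-/- and 24 UMIs in WT cells. The log2 ratio of Pdha1 was 0.60 with bounds of -0.29 and 1.49. All 3 encode parts of the pyruvate dehydrogenase complex, and none had more than 47 UMIs in a library. Of 23 further carriers 4 were read and Slc16a6, a gene of the monocarboxylate carrier family, was called higher (113 CPM in Vldlr-/- and 48.5 CPM in WT cells, a log2 ratio of 1.22 with bounds of 0.45 and 2.02). Of 25 hypoxia and glucose-sensing genes 6 were read. Epas1, which encodes HIF-2 alpha, was called higher (325 CPM in Vldlr-/- and 178 CPM in WT cells, a log2 ratio of 0.86 with bounds of 0.45 and 1.28). Egln2, a prolyl hydroxylase that marks HIF for breakdown, was called lower (33.7 CPM in Vldlr-/- and 75.6 CPM in WT cells, a log2 ratio of -1.12 with bounds of -2.28 and -0.17).

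At 2 months 25 of the 38 other glycolysis and glycogen genes were read and 3 were called higher, beside 9.88% of all genes called higher and 3.15% called lower at this age. Hkdc1, a hexokinase-like gene, had 15.8 CPM in Vldlr-/- and 6.63 CPM in WT cells, a log2 ratio of 1.25 with bounds of 0.86 and 1.65. Gpd1, named after its values were seen, was also called higher, at a log2 ratio of 0.75 with bounds of -0.13 and 1.63. Hkdc1 rested on 125 UMIs in Vldlr-/- and 96 UMIs in WT. Of the 11 pyruvate entry genes 11 were read and Pdp1, a phosphatase that switches pyruvate dehydrogenase on, was called higher (3.41 CPM in Vldlr-/- and 1.52 CPM in WT cells, a log2 ratio of 1.16 with bounds of 0.30 and 2.05). Of the carriers 8 were read and Slc2a4, the insulin-responsive glucose transporter gene, was called lower (4.80 CPM in Vldlr-/- and 8.84 CPM in WT cells, a log2 ratio of -0.87 with bounds of -1.44 and -0.35). Of the hypoxia and glucose-sensing genes 19 were read and Txnip, which curbs glucose uptake and whose expression follows glucose, was called lower (13.1 CPM in Vldlr-/- and 30.2 CPM in WT cells, a log2 ratio of -1.20 with bounds of -1.52 and -0.89). Of 8 pentose phosphate genes 4 were read at 1 month and 8 at 2 months, and 0 were called at either age.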

How the data were processed

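Dissociated RPE-choroid cells of 4 groups, with 1 droplet library each, were measured. The deposited matrices hold UMI counts per gene and barcode, with no normalization. Per the file headers they were made with Cell Ranger 6.0.2 at 1 month and 7.0.1 at 2 months, while Cell Ranger 3.0, Seurat 4.0 and mm9 appear in the submitters' processing notes. The sources used here do not give whether intron reads were counted, which could raise levels of nuclear RNA.

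The libraries held 2073 (Vldlr-/-) and 1696 (WT) barcodes at 1 month, and 1634 (Vldlr-/-) and 2540 (WT) at 2 months. Their UMIs summed to 12022513 (Vldlr-/-) and 11194301 (WT) at 1 month, and to 16292472 (Vldlr-/-) and 23070271 (WT) at 2 months. The Vldlr-/- libraries shared 1 barcode sequence, and the other pairs shared 0. Kept barcodes had 300 genes or more and no more than 30% mitochondrially encoded UMIs, 1819 (Vldlr-/-) and 1549 (WT) at 1 month, and 1140 (Vldlr-/-) and 2047 (WT) at 2 months. A doublet caller marked 26 of 6555 (0.397%), too few to have worked, so doublets may remain. The other 6529 were clustered with scanpy 1.11.5 and leidenalg 0.10.2 (Python 3.11.15) on 2000 variable genes, 30 principal components, 15 neighbours and resolution 1. That gave 30 clusters, of which 24 were named from marker lists. A cluster led by Pmel, Cox8b and Trpm1, with 16 (Vldlr-/-) and 20 (WT) cells at 1 month, and 20 (Vldlr-/-) and 108 (WT) at 2 months, stayed out of the RPE-like class although its RPE markers summed to 65230 to 104256 CPM, beside 64132 to 111021 CPM in that class. Doublets and rebuilt names can both move values between classes.

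Counts were summed per class and library and divided by the class total (CPM). Classes needed 30 cells. Ratios are log2 of Vldlr-/- over WT with 0.5 counts added and exact binomial bounds, levels carry exact Poisson bounds (numpy 2.4.6, scipy 1.17.1), and shares carry Clopper-Pearson bounds. With 1 library per group within an age no test was run, and the ratio and interval code was tested on simulated counts. The members and lists were chosen with earlier results of these data known. All 33 genes are named, with values for those of at least 30 UMIs in either pair of RPE-like sums, and of each further list the counts and up to 2 called genes an age with the largest absolute log2 ratio. A called gene of those lists is not reported here. Other filters, scalings, thresholds, class definitions, thinning and a subtraction of free RNA were tried.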

Additional observations from a re-analysis of the deposited data

Results flagged for a closer look

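For 7 genes the log2 ratio of Vldlr-/- over WT had counting intervals on opposite sides of 0 at the 2 ages. They were 2 of the 19 genes read at both ages in RPE-like cells, beside 2.96% of all genes, 4 of 24 in photoreceptor-like cells, beside 1.20%, and 1 of 29 in fibroblast-like cells, beside 1.75%. None of the differences between ages was tested, and the ages also differ in depth and in software version, which cannot be told apart from age. In RPE-like cells Slc2a1 had a ratio of 0.44 at 1 month and -0.04 at 2 months, and Slc16a1 had 0.48 at 1 month and -0.36 at 2 months. In photoreceptor-like cells Tpi1 had -1.19 at 1 month and 0.40 at 2 months, and Pgk1 had -0.70 at 1 month and 0.36 at 2 months. Aldoa there had -0.23 at 1 month and 0.26 at 2 months, and Gapdh had -0.26 at 1 month and 0.14 at 2 months. Without the cluster that held 2 Vldlr-/- and 3 WT cells at 1 month, the 1-month ratio of Tpi1 was -0.00 and that of Pgk1 was -0.46. That of Aldoa was -0.08 and that of Gapdh was -0.20. At 2 months the same cluster carried most UMIs of photoreceptor-like cells. In fibroblast-like cells Pfkp had 0.52 at 1 month and -0.65 at 2 months.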

How the results depend on the processing

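Counts of called genes were small and moved with the settings. In RPE-like cells at 1 month, where 1 gene was called higher and 0 lower, the number called higher was 5 of 16 read with at least 1000 genes per barcode (Pfkl, Aldoc, Pkm, Ldha and Slc16a1; all genes 14.5%), 0 of 14 after thinning to 1000 UMIs (all genes 9.47%), 2 of 19 in Malat1-poor cells (13.4%), 6 of 29 with no UMI minimum (33.9%), and 0 with a minimum of 100 UMIs (5.68%) or a 2-fold limit (3.60%). It was 4 of 22 with RPE-like cells picked by markers per barcode (8.54%) and 2 of 20 with the cluster led by Pmel, Cox8b and Trpm1 included (12.3%). The number called lower there was 1 with median-ratio size factors (Ldhb, 12.5%), 1 with the mean over cells (Ldhb, 13.8%), 1 after thinning (Gpi1, 10.6%), 1 with no UMI minimum (Slc16a7, 23.7%), 2 at resolution 0.5 (Aldoa and Ldhb, 18.9%) and 2 in the largest RPE-like cluster alone (Tpi1 and Ldhb, 11%). Malat1-rich cells at 1 month numbered 40 in Vldlr-/- and 45 in WT. Slc2a1, with a log2 ratio of 0.60 (0.09 to 1.12), and Slc16a1, with 0.66 (0.12 to 1.22), were called higher in them (all genes 10.7%). Tpi1, with -1.86 (-3.51 to -0.66), was called lower in them (all genes 13.8%). At 2 months, where 0 were called, the number called higher was 3 of 24 after thinning (Pgd, Pdk1 and Pdk3; 8.95%), 1 in Malat1-poor cells (Pdk4, 5.31%), 1 after subtraction of free RNA (Pdk4, 13.2%), 1 with no UMI minimum (Slc2a3, 24.9%) and 4 of 33 with cells picked per barcode (12.8%). With clusters weighted equally 1 was called lower (Pfkfb2, 7.73%). Of the 37 values called in other classes, 6 passed a 2-fold limit (all genes 4.68%), and with no UMI minimum 84 of 292 were called (42.1%). In photoreceptor-like cells at 1 month, 1 gene in place of 5 was called in cluster 6 alone, 1 in cluster 16 alone and 1 without cluster 21, the small one. The cause of these moves was not tested, beyond the fewer or more genes that a minimum leaves. Of 218 single-gene values at 1 month 199 moved by less than their counting interval, as did 292 of 352 at 2 months, and 0 called values changed sign. Of values that were not called in RPE-like cells, many changed sign, under 1 to 4 settings each. At 1 month they were Hk1, Pfkl, Pfkp, Tpi1, Pgk1, Pgam1, Pkm, Slc16a8, Bsg and Pdk2. At 2 months they were Gpi1, Pfkm, Pfkp, Aldoc, Gapdh, Pgk1, Eno2, Ldha and Slc16a7. Slc16a8, Bsg, Pfkfb4, G6pdx, Pgd, Pdk1, Pdk2, Pdk3 and Pdk4 also did so at 2 months. The log2 ratio of Slc16a1 lay between 0.17 and 0.80 at 1 month and between -0.46 and -0.28 at 2 months. The settings with the Pmel cluster included, the cluster weightings and the photoreceptor splits were chosen after seeing the data. The free RNA share of RPE-like UMIs, as estimated from rod and hemoglobin markers, was 1.73% (Vldlr-/-) and 1.65% (WT) at 1 month. At 2 months it was 1.77% (Vldlr-/-) and 12.6% (WT). Hemoglobin UMIs of WT cells at 2 months stood at 9965 CPM in 1 RPE-like cluster and between 5.82 and 12.2 CPM in the others. The 12.6% can thus not be read as free RNA spread over the class, and the 2-month subtraction rests on it. No paired analysis was possible because, within an age, each group had 1 library and the labels give no replicate numbers, and a fit of genotype over both ages was not run. At 1 month 14 of the 33 genes had too few UMIs to be read in RPE-like cells.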
